A study of Homo sapiens with 9 samples.

Results

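The insulin-like growth factor (IGF) axis is described here chiefly through 4 of its measured genes: IGF2, IGF1R, IGFBP1 and IGFBP3. Each maps to 1 probe set through its RefSeq identifier. They are 4 of the 1259 probe sets and 4 of the 927 named genes in the table. They were chosen by their signals on these same arrays, with earlier results known, because IGF2 and IGFBP3 differed between the cell lines and IGF1R and IGFBP1 between treated and untreated T84. Those values are therefore given as descriptions. So are IGFBP3 and IGF1R in treated T84 against Caco-2 and IGFBP1 in untreated T84 against Caco-2. Each of these rests on the same high or low arrays that chose the gene. Tests are given for the remaining comparisons of the members, which still share arrays with those that chose them. They are also given for other genes of the axis, except for GPC3 against Caco-2.

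RNA was measured in 2 human intestinal epithelial lines, T84 and Caco-2, both derived from colon carcinomas. T84 cells were treated with interferon gamma, a cytokine of activated T and natural killer cells, at 100 U/ml for 24 hours (3 arrays), or left untreated at passage 68 (3 arrays). Caco-2 cells were untreated at passage 37 (3 arrays), and no treated Caco-2 sample is among the 9 arrays. The untreated cells of both lines were grown in 6-well plates to 90% confluence, and the labels give no passage or confluence for the treated cells. Each line is a single line, so a difference between T84 and Caco-2 cannot be told apart from a difference in passage or culture. Nothing says that replicates were separate cultures, so each p-value reflects the spread among these arrays, part of which may be technical.

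IGF2 is a secreted growth factor that is abundant in fetal tissue and, in humans, is imprinted. It acts mainly through IGF1R, a receptor tyrosine kinase at the cell surface that also binds IGF1, and is cleared by IGF2R, a receptor that carries mannose-6-phosphate-tagged enzymes to lysosomes. The secreted IGF binding proteins, among them IGFBP1 and IGFBP3, hold both ligands outside the cell and can limit or prolong their access to the receptor. IGFBP1 is made chiefly by liver and endometrium and is repressed by insulin, whereas IGFBP3 is the main carrier of IGFs in blood.

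The RefSeq promoter table used here (GRCh38.p14) holds entries for IGF1R and IGFBP3 among the 4 genes. The 250 bases before each start are shown because the signal of IGF1R differed with interferon gamma and that of IGFBP3 between the lines. Capitals mark matches, on either strand, to the GC box GGGCGG or to the TATA-like motif TATANA. The IGF1R window lies at chr15:98648289-98648538 on the plus strand and the IGFBP3 window at chr7:45921273-45921522 on the minus strand.
IGF1R: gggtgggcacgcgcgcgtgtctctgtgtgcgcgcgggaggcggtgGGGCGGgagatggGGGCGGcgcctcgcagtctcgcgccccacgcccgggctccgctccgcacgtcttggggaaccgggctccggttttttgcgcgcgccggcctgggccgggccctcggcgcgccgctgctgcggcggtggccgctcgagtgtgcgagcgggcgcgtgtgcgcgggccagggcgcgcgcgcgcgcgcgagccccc
IGFBP3: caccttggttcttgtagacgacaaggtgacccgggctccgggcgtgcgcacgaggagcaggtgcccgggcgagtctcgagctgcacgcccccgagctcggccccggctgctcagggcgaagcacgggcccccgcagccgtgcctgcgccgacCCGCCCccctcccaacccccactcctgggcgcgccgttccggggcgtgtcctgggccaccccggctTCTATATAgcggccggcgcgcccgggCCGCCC
The IGF1R window has a GC content of 81.2% and holds 2 GC boxes, which begin 205 and 192 bases before the start, and no TATA-like match. The IGFBP3 window has a GC content of 76.0% and holds 2 overlapping TATA-like matches, which begin 32 and 30 bases before the start, and 2 GC boxes at 98 and 6 bases. Of 35116 windows of the same length in the table, 42.6% hold a GC box and 17.7% a TATA-like match, and their median GC content is 58.0%. These matches describe letters in the reference and are not evidence that a factor binds there.

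All values are log2 signals summarised and normalized between arrays by the authors with RMA, a method that combines the probes of a set into 1 value per array. The table spans 2.80 to 14.55 log2 units and carries no detection calls, so whether a low signal stands above background is not known here. Differences are in log2 units with the standard error (SE) of a limma fit to all 9 arrays, and group means are given with the standard deviation (SD, n = 3). A probe set was called at an adjusted p below 0.05 (moderated test of limma, two-sided, Benjamini-Hochberg over all 1259 probe sets). At that threshold 10.2% of all probe sets were called in treated against untreated T84, 45.6% in treated T84 against Caco-2 and 43.7% in untreated T84 against Caco-2. The treatment registered in the treated arrays: all 5 measured genes of an interferon gamma response list were called higher than in untreated T84, by 3.17 to 6.12 log2 units. In that comparison 4.37% of all probe sets were called higher. The list was set with earlier results of these data known, so it is not an independent check. Of the intestinal epithelial markers, LGALS4, FUT3, MUC2 and MUC13 were measured, and all 4 were higher in both T84 groups than in Caco-2. Between treated and untreated T84, LGALS4 was lower (-0.53 ± 0.05, limma adjusted p = 0.000241) and MUC13 higher (0.40 ± 0.07, limma adjusted p = 0.0104), and their part in the results within T84 was not tested. Of the hepatocyte-type markers, AHSG, ASGR1 and ASGR2 were measured, and all 3 were lower in both T84 groups than in Caco-2, with differences between -5.02 and -1.42 log2 units. None of the 5 measured leukocyte and 7 measured fibroblast or endothelial markers was called between treated and untreated T84. Against Caco-2, 1 leukocyte marker was higher and 4 fibroblast or endothelial markers were lower in each T84 group, and the part of any other cell type in the results was not tested.

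Among the 9 measured genes of the axis, IGF2, the ligand, had the largest differences between each T84 group and Caco-2. Its log2 signal was 7.21, 7.30 and 7.47 in treated T84 and 7.15, 7.12 and 7.15 in untreated T84, against 13.81, 13.72 and 13.77 in Caco-2. Every T84 array lay more than 6 log2 units below every Caco-2 array, and the Caco-2 replicates stayed within 0.09 log2 units of each other. These values helped to choose the gene, and the difference from Caco-2 was -6.44 ± 0.07 for treated and -6.62 ± 0.07 for untreated T84 (SE, n = 3 per group). In such bulk RNA, fewer expressing cells and less RNA per cell cannot be told apart. Within T84, a comparison that did not choose the gene, the treated arrays were all above the untreated ones, and the difference was small at 0.19 ± 0.07 (95% confidence interval 0.03 to 0.34), which did not pass the test (limma adjusted p = 0.16). Without treated replicate 3, the highest of the T84 arrays, it was 0.11. Groups without overlap made up 27.5% of all probe sets in that comparison, so this separation is not unusual there. The same stretch of chromosome 11 also carries the readthrough gene INS-IGF2 in GRCh38.p14, and since no probe positions were used, its transcripts cannot be told apart from those of IGF2.

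**Figure D1:**
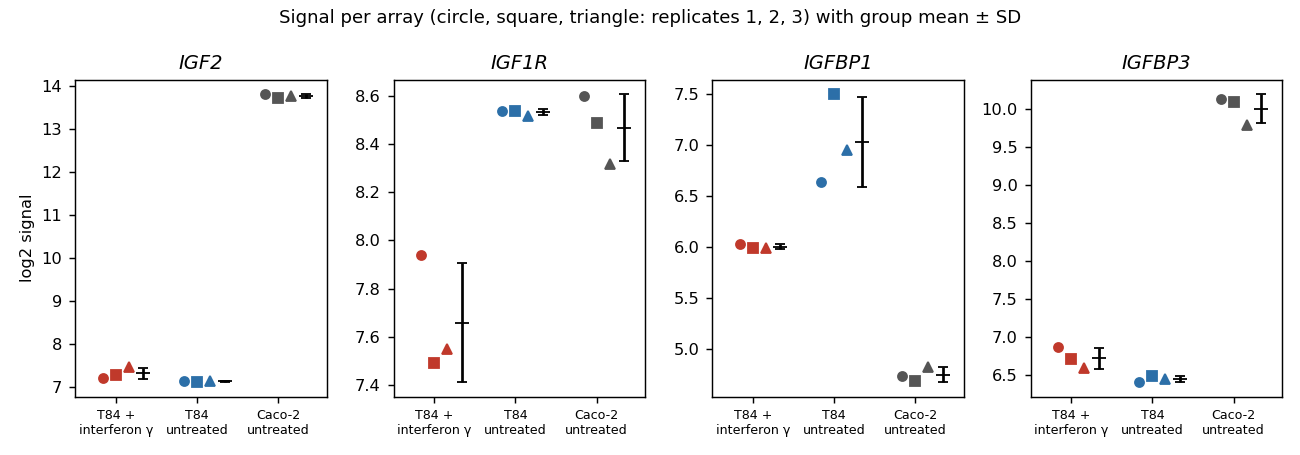
Log2 signal (vertical axes, with a scale of their own for each gene) of IGF2, IGF1R, IGFBP1 and IGFBP3 on each array of T84 with interferon gamma, T84 without it and Caco-2; circles, squares and triangles are replicates 1, 2 and 3, and bars are the group mean ± SD. IGF2 and IGFBP3 are low in both T84 groups, IGF1R is low in treated T84 alone, and IGFBP1 is highest in untreated T84 and lowest in Caco-2.

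IGF1R, the signalling receptor, had its lowest signals in treated T84. Its log2 signal was 7.94, 7.49 and 7.55 in treated T84 and 8.54, 8.54 and 8.52 in untreated T84, against 8.60, 8.49 and 8.32 in Caco-2. All 3 treated arrays lay below all 6 untreated arrays of both lines. Replicate 1 was the highest of the treated arrays, and the untreated T84 replicates lay within 0.02 log2 units of each other. The difference between treated and untreated T84, which chose the gene, was -0.88 ± 0.12 (1.84-fold lower). Without treated replicate 1 it was -1.02, and without treated replicate 2 it was -0.79. Treated T84 was also lower than Caco-2, by -0.81 ± 0.12 (95% confidence interval -1.09 to -0.54, n = 3 per group). This comparison shares the low treated arrays with the one that chose the gene and is given without a test. Ribosomal centring subtracts from each array its mean over 51 probe sets of 41 genes of ribosomal proteins. It lifts the median of all probe sets in this comparison to 0.46, and the IGF1R difference was then -0.37. Untreated T84 did not differ from Caco-2 past the test (0.06 ± 0.12, interval -0.21 to 0.34, limma adjusted p = 0.711), and the interval leaves room for a difference of up to 0.34 log2 units. With ribosomal centring, under which the median of all probe sets in this comparison is 0.31, a call was gained: the IGF1R difference was then 0.36 (limma adjusted p = 0.0155), close to that median.

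IGFBP1, a binding protein, was higher in both T84 groups than in Caco-2. Its log2 signal was 6.03, 5.99 and 5.99 in treated T84 and 6.64, 7.50 and 6.95 in untreated T84, against 4.73, 4.68 and 4.82 in Caco-2. No 2 of the groups overlapped, which was also so for IGF2 and IGFBP3. The untreated T84 replicates spread over 0.87 log2 units, while the treated ones stayed within 0.05 and the Caco-2 ones within 0.15. The difference between treated and untreated T84, which chose the gene, was -1.03 ± 0.18 (2.04-fold lower), and it ran from -1.22 without untreated replicate 1 to -0.79 without untreated replicate 2, which has the highest signal. Caco-2 lay below both T84 groups. Treated T84 exceeded it by 1.26 ± 0.18 (2.39-fold, 95% confidence interval 1.78 to 3.21, limma adjusted p = 0.000521, n = 3 per group). That SE includes the spread of untreated T84, and in a fit of treated T84 and Caco-2 alone it was 0.05. Untreated T84 exceeded Caco-2 by 2.29 ± 0.18 (4.88-fold, with an interval of 3.63 to 6.54). Both comparisons share T84 arrays with the one that chose the gene. The second rests on the same high untreated arrays and is given without a test.

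IGFBP3, the other binding protein among the members, followed the order of IGF2 and not that of IGFBP1. Its log2 signal was 6.87, 6.72 and 6.59 in treated T84 and 6.41, 6.49 and 6.45 in untreated T84, against 10.14, 10.09 and 9.79 in Caco-2. Both T84 groups lay far below Caco-2, and the treated arrays lay above the untreated ones without overlap. The difference from Caco-2 was -3.56 ± 0.10 in untreated T84, the comparison that chose the gene, and -3.28 ± 0.10 in treated T84 (SE, n = 3 per group), or 9.73-fold lower with a 95% confidence interval of 8.24 to 11.5. The second of these shares the Caco-2 arrays with the first and is likewise given without a test. Within T84 the difference of 0.27 ± 0.10 (95% confidence interval 0.04 to 0.51) did not pass the test (limma adjusted p = 0.18). With ribosomal centring, which lifts the median of all probe sets in this comparison to 0.14, the calls for IGF2 (0.34, limma adjusted p = 0.022) and IGFBP3 (0.43, limma adjusted p = 0.019) were gained. The suffix of the IGFBP3 probe set marks it as shared among transcripts, while those of the other 3 members carry no such mark.

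The members thus fell into 3 orders of level. IGF2 and IGFBP3 were highest in Caco-2 and did not differ past the test between the T84 groups. IGF1R was lowest in treated T84, and its difference between untreated T84 and Caco-2 had an interval of -0.21 to 0.34. IGFBP1 was highest in untreated T84, intermediate in treated T84 and lowest in Caco-2. Group ranges lay apart for all 4 members between treated and untreated T84, for all 4 between treated T84 and Caco-2 and for 3 of 4 between untreated T84 and Caco-2, against 27.5%, 53.5% and 49.6% of all probe sets. These counts hold the comparisons that chose the members, so nothing is read from them. Calls against Caco-2 are common on these arrays.

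**Figure D2:**
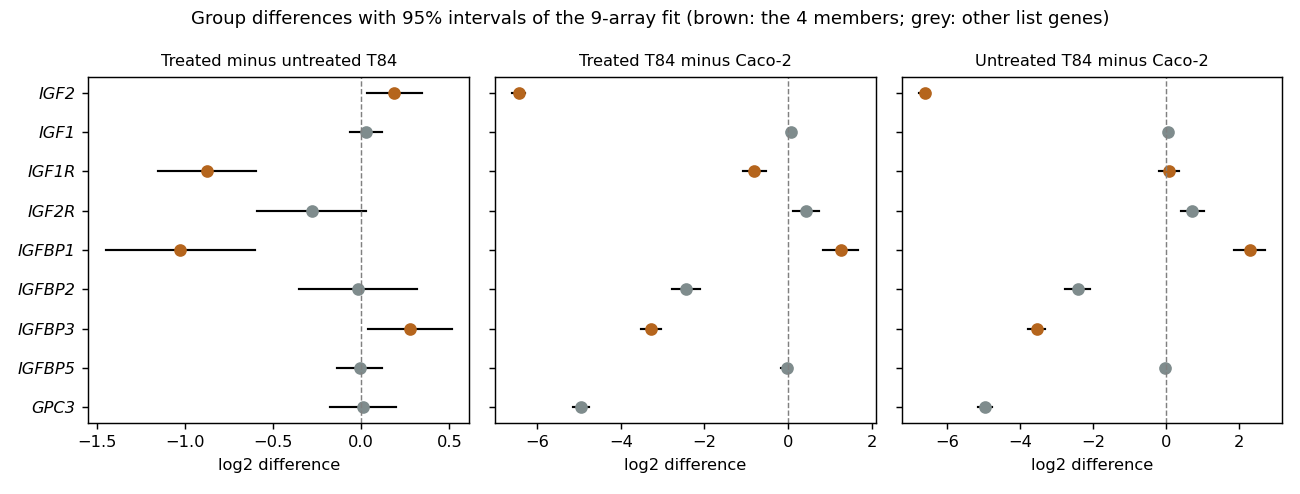
Log2 differences (horizontal axes, scaled separately) of the 9 measured genes of the axis in each comparison, with 95% confidence intervals of the limma fit to 9 arrays; brown points are IGF2, IGF1R, IGFBP1 and IGFBP3, and grey points the other 5 genes. Within T84 only IGF1R and IGFBP1 lie beyond -0.5, whereas against Caco-2 IGF2, GPC3, IGFBP3 and IGFBP2 are the lowest and IGFBP1 is the highest.

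The rest of the axis was taken from a list of 38 genes of ligands, receptors, binding proteins, their regulators and signalling adapters. Besides the 4 members, 5 of them were measured, each by 1 probe set: IGF1, IGF2R, IGFBP2, IGFBP5 and GPC3. The other 29, among them the insulin receptor gene and the intracellular adapters, were not analysed here. Between treated and untreated T84 none of the 5 was called (0 at an unadjusted p below 0.05 either), and their median difference was -0.01, the same as for all probe sets. In treated T84 against Caco-2, 1 of the 5 passed upward, 2 downward and 2 did not pass, where 19.4% of all probe sets were called higher and 26.2% lower. The counts were the same for untreated T84, where 19.5% were called higher and 24.2% lower. GPC3 is 1 of the 2 lower genes in each comparison with Caco-2. Its difference from Caco-2 was known from earlier results, so these counts are given as a description.

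IGFBP2, a binding protein gene active in fetal tissue, was lower in both T84 groups. Its log2 signal was 5.91, 5.85 and 6.15 in treated T84 and 6.09, 5.86 and 6.02 in untreated T84, against 8.75, 8.29 and 8.21 in Caco-2. The T84 groups overlapped each other and neither reached Caco-2. The difference from Caco-2 was -2.44 ± 0.15 in treated T84 (limma adjusted p = 1.93e-06) and -2.43 ± 0.15 in untreated T84 (limma adjusted p = 2.65e-06, n = 3 per group). GPC3 encodes glypican-3, a proteoglycan of the cell surface that binds IGF2 in some settings. Its log2 signal lay between 6.81 and 7.07 on the 6 T84 arrays, against 11.98, 11.94 and 11.75 in Caco-2. Its difference from Caco-2, -4.96 ± 0.08 in both T84 groups, was already known from earlier results and is given as a description.

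IGF2R, the clearing receptor, ran the other way. Its log2 signal was 11.02, 10.83 and 10.73 in treated T84 and 11.07, 11.18 and 11.17 in untreated T84, against 10.72, 10.37 and 10.18 in Caco-2. It was higher than in Caco-2 by 0.43 ± 0.13 in treated T84 (limma adjusted p = 0.0272) and by 0.72 ± 0.13 in untreated T84 (limma adjusted p = 0.00235, n = 3 per group). Caco-2 replicate 1 nearly reached the lowest treated T84 array. The call in treated T84 was lost without treated replicate 1 or 2 or without Caco-2 replicate 2 or 3, at limma adjusted p values of 0.0631 to 0.0944. It was also lost in a fit of the 2 groups alone (limma adjusted p = 0.0685) and after quantile normalization (0.29, limma adjusted p = 0.0757), whereas ribosomal centring gave 0.88. Between the T84 groups the difference of -0.28 ± 0.13 did not pass (limma adjusted p = 0.306), and among the alternatives run it passed only with array weights (limma adjusted p = 0.0311).

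IGF1, the other ligand, and IGFBP5, a binding protein, had low signals that varied little. IGF1 lay between 3.46 and 3.60 and IGFBP5 between 3.15 and 3.32 on all 9 arrays, a span of 0.14 and 0.17 log2 units, against a span of 0.50 for the median probe set. Both lay near the lowest value in the table, 2.80. A small span at that level does not show steady expression, and whether either gene is expressed is not known here. Neither was called in any comparison of the unweighted fit to the deposited values of all 9 arrays. With array weights IGF1 was called in treated T84 against Caco-2, at 0.12 (limma adjusted p = 0.00898). With ribosomal centring both were called higher in each T84 group than in Caco-2, IGFBP5 with its sign turned, and IGF1 was called higher in treated than in untreated T84 (0.18, limma adjusted p = 0.0305). The differences from Caco-2 were 0.52 (IGF1) and 0.41 (IGFBP5) in treated and 0.34 and 0.27 in untreated T84. Those lie around the medians of all probe sets under that scaling, 0.46 and 0.31.

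**Figure D3:**
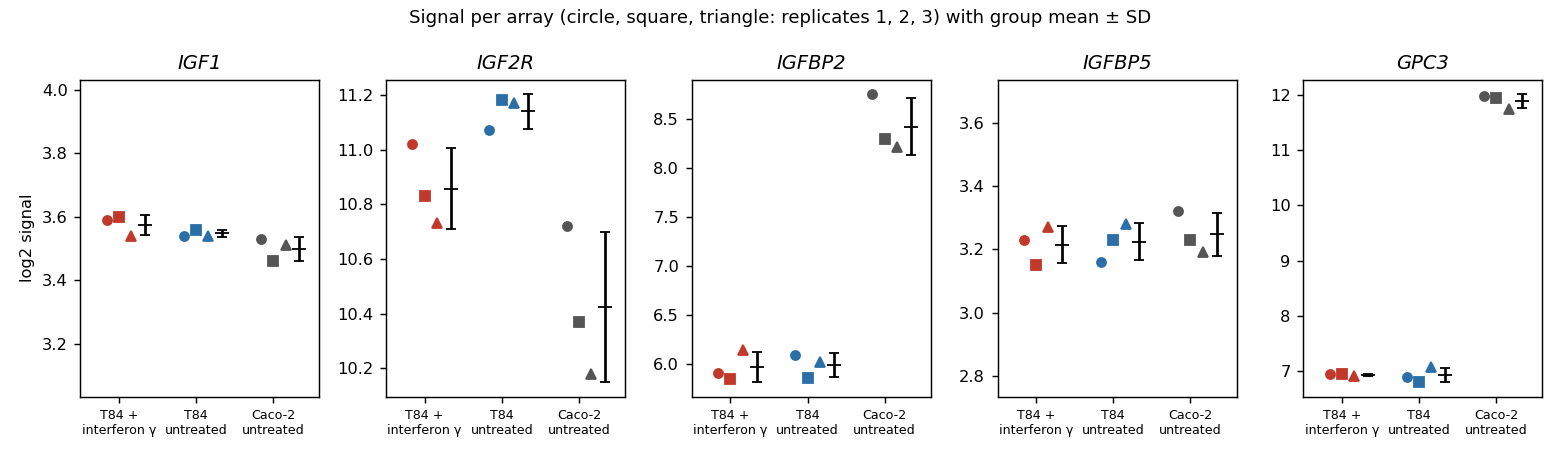
Log2 signal (vertical axes, with a scale of their own for each gene) of IGF1, IGF2R, IGFBP2, IGFBP5 and GPC3 on each array; circles, squares and triangles are replicates 1, 2 and 3, and bars are the group mean ± SD. IGFBP2 and GPC3 are low in both T84 groups, IGF2R is highest in untreated T84, and IGF1 and IGFBP5 span under 0.2 log2 units.

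The genes most like each member over the 9 arrays were sought among the other 289 genes whose array values span at least 1 log2 unit, by Pearson's r on log2 signal. The 9 arrays are 3 groups of 3, so r largely reflects differences between groups, and it is given as a description. For IGF2 they were the plasma glycoprotein gene AHSG (r = 0.999), GPC3 (0.999) and the I-branching enzyme gene GCNT2 (0.999). For IGFBP3 they were the sialomucin gene PODXL (0.998), GPC3 (0.996) and the frizzled receptor gene FZD4 (0.996). For IGF1R they were the hedgehog ligand gene IHH (0.927), the frizzled receptor gene FZD2 (0.891) and the fucosidase gene FUCA1 (0.889). For IGFBP1 they were LFNG, a glycosyltransferase gene of the Notch pathway (0.990), the phospholipase receptor gene PLA2R1 (0.978) and the transporter gene SLC35D3 (0.977). IHH, the nearest to IGF1R, averaged 8.12 in treated T84 and 9.18 in untreated T84, against 9.42 in Caco-2, so it too was lowest in treated T84. LFNG, the nearest to IGFBP1, averaged 8.65 in treated T84 and 9.46 in untreated T84, against 7.55 in Caco-2, the same order as IGFBP1. Among the members themselves, r was 0.995 between IGF2 and IGFBP3, -0.897 between IGFBP1 and IGFBP3 and 0.39 between IGF2 and IGF1R.

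Set beside other growth factor systems, IGF1R was not the only gene with a lower signal in treated T84. The lists of these systems were set with earlier results of these data known, so counts and examples are given as a description. Of 11 other measured receptor tyrosine kinase genes, 0 passed the test upward and 3 downward between treated and untreated T84, against 4.37% of all probe sets higher and 5.8% lower. FGFR3 (-1.24 ± 0.11) and ERBB3 (-0.82 ± 0.10), which encode receptors for fibroblast growth factors and neuregulins, had the largest differences. Of 26 other secreted growth factor genes, 1 was higher and 4 lower, the largest being FGF18 (-0.77 ± 0.10) and BMP7 (-0.68 ± 0.10, n = 3 per group). In untreated T84 against Caco-2, 2 of the 11 receptors were higher and 8 lower, and 7 of the 26 growth factors were higher and 7 lower, against 19.5% and 24.2% of all probe sets.

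**Figure D4:**
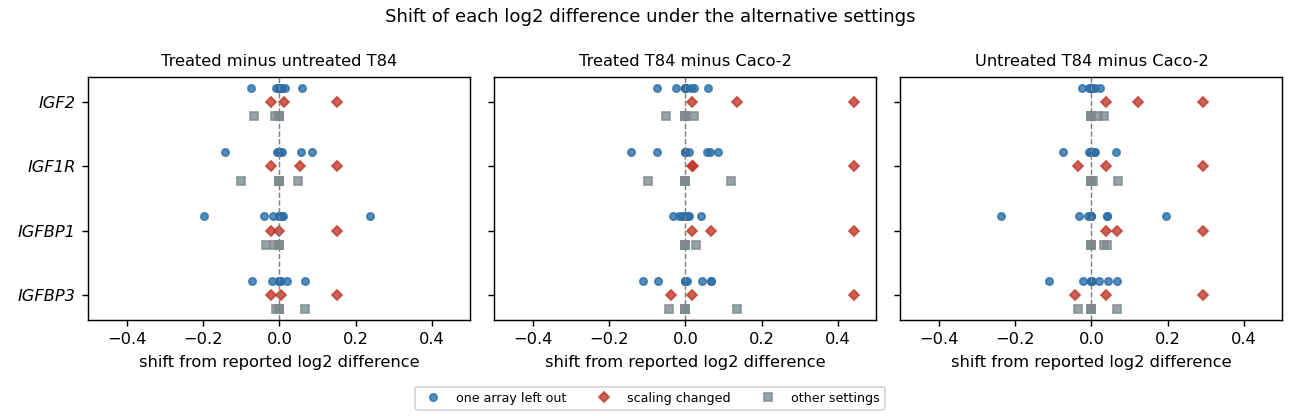
Shift of each member's log2 difference (horizontal axes) from the reported value when 1 array was left out (blue circles), when the scaling was changed (red diamonds) or under other settings (grey squares), in each comparison. Leaving out an array moved no difference by more than 0.24 log2 units, the largest shifts of that kind being those of IGFBP1 in comparisons with untreated T84; the rightmost red diamonds are ribosomal centring.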

How the data were processed

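Per the labels, total RNA was extracted with Trizol, and 0.5 ug of it was turned into biotin-labelled cRNA for Affymetrix-type arrays. The table deposited holds a log2 signal for each probe set, which the authors made with RMA, per the submitters' processing notes. The RMA version, any later filter and the genome build were not given in the sources used here. Values were used as deposited.

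Of 1259 probe sets, 1043 matched exactly 1 symbol (927 genes) by RefSeq accession without version in the RefSeq gene table (GRCh38.p14), and 216 stayed unnamed but in every test. Where a gene had several probe sets, the brightest on average was used. All 9 arrays, 3 per group, entered one limma 3.58.1 fit (R 4.3.3) with group as the factor and 6 residual plus 2.12 prior degrees of freedom, which therefore shares its spread over the 3 groups. Intervals are at 95%. The array number limits the precision, and the median SE of a log2 difference was 0.077.

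The members and lists were chosen with earlier results of these data known. Named genes were the members, the measured genes of the IGF list, the 3 genes most correlated with each member, and up to 2 examples of each other growth factor list. On simulated data for treated against untreated T84 (1259 probe sets, 200 changed, 20 times), changes of 0.25, 0.5, 1 and 2 log2 units were called in 51.4, 80.8, 95.9 and 99.0% of cases. No 2 arrays held identical values. Deviations of same-numbered arrays from their group means correlated from -0.643 to 0.561, so the numbers were not taken to pair the arrays. The alternatives were fits of 2 groups alone, a replicate block, trended robust moderation, array weights, other scalings, a filter on probe sets with a mean below 6 log2 units, a threshold of 0.01 and fits without each array. Figures were drawn with matplotlib 3.10.9 in Python 3.11.15, with pandas 2.3.3.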

Additional observations from a re-analysis of the deposited data

How the results depend on the processing

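Of 213 recomputed differences of the 4 members, 205 kept their call, or moved by less than the spread between replicates for the values that chose the members. For the values that chose the members, several settings cannot move the difference, so their agreement was fixed in advance. They are fits of 2 groups alone, the replicate block, trended robust moderation, the dim filter and leaving out an array outside the comparison. IGFBP3 and IGF1R in treated T84 against Caco-2 and IGFBP1 in untreated T84 against Caco-2 were counted by their calls, although given without a test. With ribosomal centring, IGFBP3 and IGF1R in treated T84 against Caco-2 and IGFBP1 in untreated T84 against Caco-2 moved by more than that spread. Ribosomal centring, which lifts the median of all probe sets by 0.15 to 0.44 log2 units, gave IGF2 -6.00 in treated and -6.33 in untreated T84 against Caco-2 and 0.34 within T84, IGFBP3 -2.84 in treated and -3.27 in untreated T84 against Caco-2 and 0.43 within T84, and IGF1R 0.36 in untreated T84 against Caco-2. Quantile normalization gave IGF2 -6.30 and -6.50 in treated and untreated T84 against Caco-2. For IGFBP5, ribosomal centring turned the sign (0.41 and 0.27). Ribosomal centring called 341, 1091 and 1032 probe sets in treated against untreated T84, treated T84 against Caco-2 and untreated T84 against Caco-2, where 128, 574 and 550 were called as deposited. Its split was 289 higher and 52 lower, 911 and 180, and 837 and 195, where it was 55 and 73, 244 and 330, and 245 and 305 as deposited. It called 1, 5 and 5 of the 5 other genes of the axis, where 0, 3 and 3 were called. Within T84, array weights called 231 probe sets and 1 of the 5 genes, and a threshold of 0.01 called 79 probe sets. With 1 array left out, the calls ran from 86 to 178, from 521 to 640 and from 480 to 600 probe sets, and from 2 to 3 of the 5 genes in treated T84 against Caco-2. In treated against untreated T84 the number lower was 40, 48 and 44 without treated replicate 2, treated replicate 3 and untreated replicate 3. IGF1R in untreated T84 against Caco-2 ran from -0.01, without Caco-2 replicate 3, to 0.13, and was never called. The replicate block called 109, 534 and 499 probe sets and changed no call of the 9 genes of the axis, and the numbers of the labels are not known to pair the arrays. Treated T84 replicate 3, untreated T84 replicate 3 and Caco-2 replicate 1 deviated together from their group means (r = 0.484 to 0.756). Leaving out these 3, an alternative chosen after seeing the data, gave IGF1R -0.83 and IGFBP1 -1.06 within T84. The filter on dim probe sets removed IGFBP1, IGF1 and IGFBP5, and each gene of the axis had 1 probe set, so another choice of probe set was not run. The cause of these shifts was not tested.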

Other observations

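The measured binding protein genes of the axis lie in neighbouring pairs in GRCh38.p14. There are 0 protein-coding genes between IGFBP1 and IGFBP3 on chromosome 7 and 0 between IGFBP2 and IGFBP5 on chromosome 2. The signals of the neighbours differed, but for IGFBP1 and IGFBP3 this rests partly on values that chose the members. IGFBP5 lay near the lowest value in the table, so a pattern may not be visible for it. IGFBP1 was higher by 2.29 log2 units and IGFBP3 lower, at -3.56, in untreated T84 than in Caco-2, and in treated T84 the same genes differed from Caco-2 by 1.26 and -3.28. IGFBP2 was lower, at -2.44 in treated and -2.43 in untreated T84, and IGFBP5 stood at -0.03 and -0.02. IGFBP1 and IGFBP3 also had opposite signs between treated and untreated T84, at -1.03 and 0.27, the second of which did not pass the test. The difference between neighbours was not tested.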
